A study of Mus musculus with 9 samples.

Results

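The 10 genes described here encode receptor tyrosine kinases that are studied in kidney cancer: Met, Axl, Egfr, Erbb2, Erbb3, Fgfr1, Fgfr2, Igf1r, Pdgfra and Pdgfrb. They were found by gene symbol in a table of 54532 genes. No measured value served as a filter, but the list was chosen with earlier results of these data known. RNA was sequenced from RENCA, a mouse renal carcinoma cell line, in 9 libraries, 3 in each of 3 groups. The empty vector cells carried a wild-type genotype and an empty vector. The knockout cells came from single-cell colonies grown after CRISPR editing of Ndufa4l2, a gene of the mitochondrial respiratory chain, with 1 guide in the Cas9 plasmid PX458, and were screened by qPCR. The rescue cells were knockout cells that re-expressed Ndufa4l2 from a lentivirus with a puromycin resistance cassette and had been selected with puromycin. How many colonies went into the knockout libraries is not given, so the edit, the cloning, and for the rescue the virus and the drug, cannot be told apart. Whether the 3 libraries of a group are separate cultures is not stated in the labels. The p-values therefore rest on the spread between libraries, which may be technical.

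Receptor tyrosine kinases span the plasma membrane. When a growth factor binds outside the cell, the receptors pair, phosphorylate each other on tyrosines and recruit adaptors that feed the RAS to MAP kinase and PI3 kinase pathways, while phosphatases, ubiquitin ligases and Sprouty proteins dampen the signal. In clear cell kidney cancer MET and AXL are known as targets of multikinase inhibitors, and EGFR and its ligand TGF-alpha are known for their link to the loss of VHL.

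The main differences were in Met, Erbb2 and Pdgfrb. In the knockout libraries Met, the receptor of hepatocyte growth factor, was 2.57-fold lower than with the empty vector, Erbb2, the ErbB receptor that binds no ligand of its own, was 1.68-fold higher, and Pdgfrb, a receptor of platelet-derived growth factors, was 2.13-fold higher. In the rescue libraries these 3 genes did not pass the test against the empty vector. Fgfr1, Igf1r, Egfr and Erbb3 were lower in the rescue than with the empty vector. Pdgfra was too low to measure and Fgfr2 lay near the floor. With 60.6% of all tested genes called between knockout and empty vector, a call alone does not set a receptor apart from other genes.

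Sequence upstream of the gene is shown for Met, Erbb2 and Igf1r. Between empty vector and knockout Met fell, while Erbb2 and Igf1r were called higher, a call that Igf1r lost in some settings. The sequences come from RefSeq (GRCm38.p6), whose promoter table held 7 of the 10 genes, and only bases outside the deposited gene span were kept. Met spans chr6:17463800-17573980 on the plus strand, and the 93 bases before it (chr6:17463707-17463799) are shown, since the other 157 bases of the window before the RefSeq start lie inside the deposited gene. Erbb2 spans chr11:98412470-98437716 on the plus strand and is shown with 236 bases (chr11:98412234-98412469), 14 having been left out in the same way. Igf1r spans chr7:67952827-68233668 on the plus strand, and the 250 bases before its RefSeq start are chr7:67952007-67952256. Unlike the other 2 windows, this one does not adjoin the deposited gene, and the bases between 67952256 and 67952827 are not shown. Capitals mark a GC box (GGGCGG or its reverse complement) or a hypoxia response core of the letters GCGTG or its reverse complement.
Met: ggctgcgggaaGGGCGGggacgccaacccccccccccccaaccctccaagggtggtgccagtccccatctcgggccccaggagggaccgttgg
Erbb2: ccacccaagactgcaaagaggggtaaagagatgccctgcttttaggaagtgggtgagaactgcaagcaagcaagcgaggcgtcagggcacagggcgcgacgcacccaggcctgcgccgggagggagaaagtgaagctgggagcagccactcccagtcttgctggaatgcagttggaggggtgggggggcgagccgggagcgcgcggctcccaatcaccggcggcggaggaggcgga
Igf1r: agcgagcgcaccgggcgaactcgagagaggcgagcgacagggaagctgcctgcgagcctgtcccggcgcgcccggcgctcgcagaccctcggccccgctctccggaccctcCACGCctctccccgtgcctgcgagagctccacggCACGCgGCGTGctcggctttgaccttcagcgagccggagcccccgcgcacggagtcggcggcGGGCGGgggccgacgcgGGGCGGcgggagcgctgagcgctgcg
The motifs searched, on both strands, were the GC box GGGCGG, the hypoxia response cores ACGTG and GCGTG, the AP-1 site TGANTCA and the TATA box TATAAA. Matches were counted for each motif separately, and no match in these windows shared a base with another. The Met window held 1 GC box, a motif found in 9.67% of 32851 RefSeq promoter windows of the same length. The Erbb2 window held none of the 5. The Igf1r window held 2 GC boxes, present in 32.7% of windows of that length, and 3 GCGTG cores, present in 28.2%. The windows were rich in G and C, at 75.3% for Met, 65.7% for Erbb2 and 77.6% for Igf1r, against medians of 50.5%, 52.1% and 52.4% over all promoter windows of the same length. The windows of Axl and Egfr, not shown here, each held 1 GC box and none of the other motifs. That of Pdgfra held none of the 5. A match describes letters only and names no bound factor.

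The count totals of the libraries ran from 13106531 to 26643877, and 13326 genes had enough counts to be tested. Counts are given as CPM, counts scaled to a common library size after scaling by TMM factors, which adjust for composition. The count of Ndufa4l2 itself was 12, 6 and 16 with the empty vector, 7, 8 and 6 in the knockout and 73, 48 and 35 in the rescue. It was 4.61-fold higher in the rescue than with the empty vector (edgeR adjusted p = 8e-06), while the knockout and the empty vector overlapped (log2 fold change -0.36 ± 0.42, adjusted p = 0.47). The transcript therefore checks the label of the rescue and not that of the knockout. The 13 listed markers of kidney tubule and carcinoma epithelium summed to 1451 to 1733 CPM with the empty vector, 2492 to 2692 CPM in the knockout and 1948 to 2012 CPM in the rescue, and 10 of them had enough counts to be tested. They did not move together: Pax8, a transcription factor of the kidney lineage, averaged 236, 98.6 and 165 CPM in the 3 groups, while Cdh16, kidney cadherin, averaged 318, 703 and 488 CPM. Of the epithelial markers, Epcam and Krt19 were at or near 0. Krt8 averaged 296, 530 and 435 CPM and Krt18 102, 145 and 142 CPM in the 3 groups. Cdh1 averaged 11.9, 99.5 and 2.46 CPM in the same order. Transcripts of the mitochondrial genome took 2.16 to 3.17% of the counts with the empty vector, 5.79 to 7.93% in the knockout and 2.23 to 2.65% in the rescue, and their part in the differences below was not tested.

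Levels can be compared between genes only per length, for which the deposited FPKM values (fragments per kilobase, scaled to library size) were used. With the empty vector, Fgfr1 had the most transcript per length, at 28.9 ± 0.381 FPKM (SD, n = 3), followed by Erbb2 at 14.2 ± 1.61 FPKM. Erbb3 (11.3 ± 0.175 FPKM) and Met (11.3 ± 0.684 FPKM) overlapped, Axl followed at 9.97 ± 0.398 FPKM, and Egfr (7.51 ± 0.333 FPKM) and Igf1r (7.02 ± 0.358 FPKM) again overlapped. Pdgfrb was lower, at 5.02 ± 0.624 FPKM, and Fgfr2 lay far below, at 0.0184 ± 0.00309 FPKM. The order was different in the knockout: Fgfr1 (33.4 ± 3.40 FPKM) and Erbb2 (24.3 ± 1.97 FPKM) led, Pdgfrb came next at 10.8 ± 1.02 FPKM, and Met, at 4.48 ± 0.512 FPKM, was the lowest of the 8 receptors well above the floor. Between Pdgfrb and Met in that group, Axl, Erbb3, Igf1r and Egfr lay at 9.01, 8.85, 8.25 and 7.07 FPKM with overlapping ranges. In the rescue Met (10.6 ± 0.932 FPKM) was the third after Fgfr1 (21.4 ± 0.702 FPKM) and Erbb2 (13.3 ± 0.518 FPKM), Axl and Erbb3 overlapped at 9.66 and 9.48 FPKM, and Egfr (6.02 ± 0.227 FPKM), Igf1r (4.96 ± 0.132 FPKM) and Pdgfrb (4.50 ± 0.132 FPKM) came after them in that order.

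**Figure D1:**
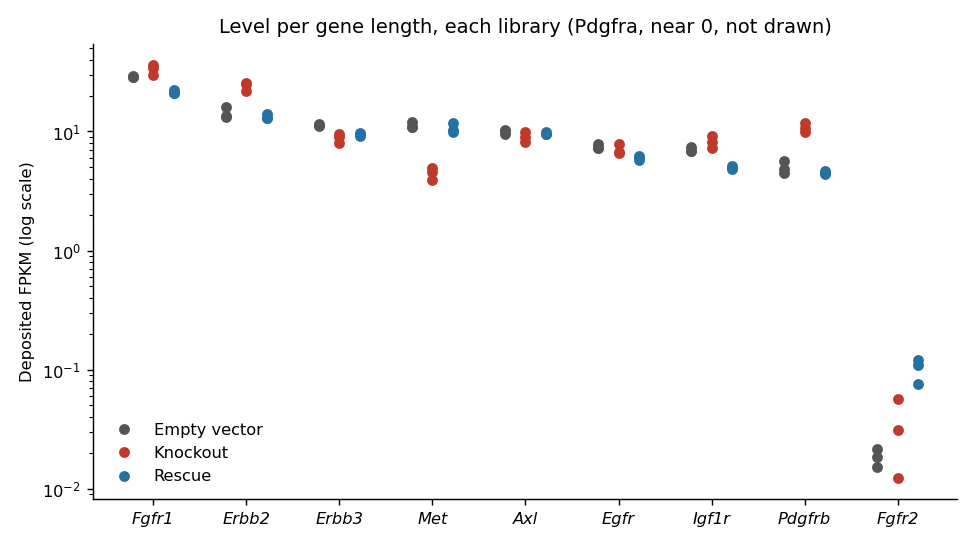
Deposited FPKM (log scale) of each receptor except Pdgfra in the 9 libraries, 1 point per library, coloured by group. Fgfr1 is highest in each group and Fgfr2 lies near 0.02 to 0.1 FPKM, while Met is the only receptor whose knockout points stand well below both other groups.

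Of the 10 receptors, 9 were tested, and Fgfr2 entered the test only through its rescue counts, so the counts of calls are given for the other 8. Between knockout and empty vector, 4 of the 8 were called higher and 3 lower, beside 29.5% and 31.1% of all tested genes. The 8 receptors had a median log2 fold change of 0.04 and all tested genes one of -0.02. In the rescue set against the knockout, 1 was higher and 5 were lower, beside 29.5% and 27.3% of all genes and 56.8% in either direction, with medians of -0.42 for the 8 receptors and 0.03 for all genes. Between rescue and empty vector, none was higher and 4 were lower, beside 22.4% and 25.1% of all genes and 47.5% in either direction, with medians of -0.21 and -0.02. Values of the groups compared stayed apart, with no overlap between libraries, for 5, 6 and 4 of the 8 receptors in these comparisons, beside 63.7%, 65.3% and 55.1% of all tested genes. All 8 log2 fold changes between rescue and empty vector were below 0 in this edgeR fit, so none was higher at an unadjusted p under 0.05, and DESeq2 called none of the 8 higher. The number called higher in the knockout was 2 in place of 4 without empty vector replicate 3, without knockout replicate 1 and with library totals alone. Without knockout replicate 1, and with library totals alone, 4 receptors were higher in the rescue than in the knockout in place of 2, Fgfr2 included. These counts describe 8 genes and were not tested against the rest. The 3 comparisons share libraries with one another, so a low value in the knockout enters the first and the second alike.

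**Figure D2:**
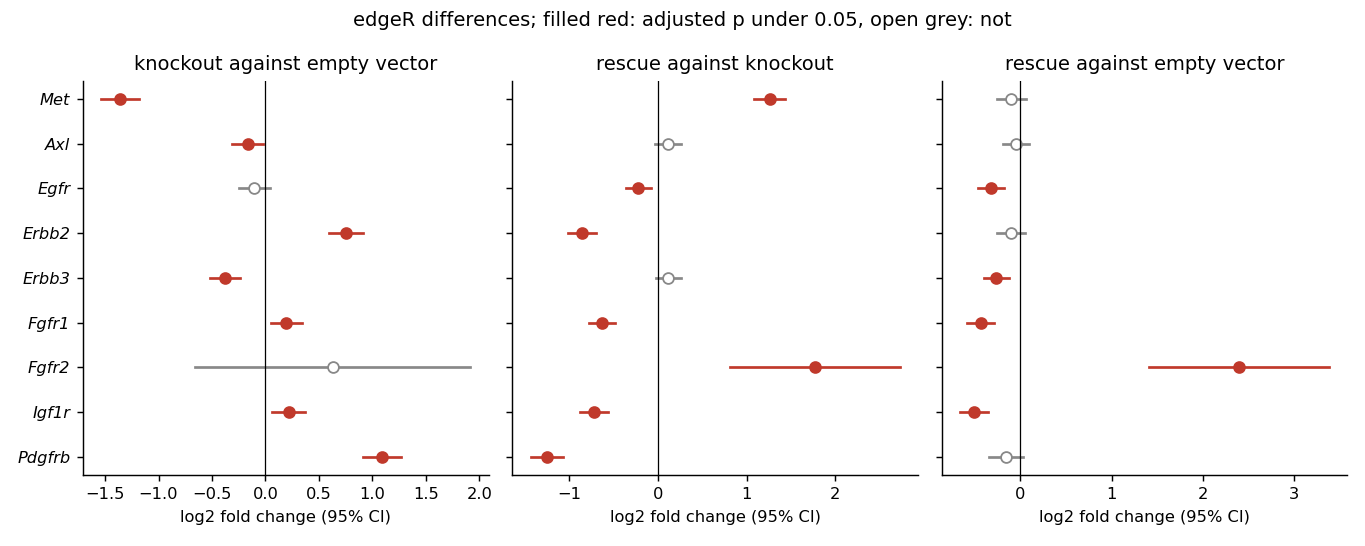
log2 fold change with its 95% confidence interval for the 9 tested receptors in each of the 3 comparisons, filled red where the edgeR adjusted p was under 0.05. Met, Erbb2 and Pdgfrb lie far from 0 on the knockout axes and near 0 between rescue and empty vector.

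Met is the receptor of hepatocyte growth factor, which drives scattering and growth of tubule epithelium. It measured 92.9, 85.2 and 85.3 CPM in the empty vector libraries, 38.0, 34.8 and 30.3 CPM in the knockout and 79.5, 76.5 and 90.3 CPM in the rescue. The 3 knockout libraries lay below all others, and the empty vector and rescue libraries overlapped. Met was 2.57-fold lower in the knockout than with the empty vector (log2 fold change -1.36 ± 0.08 SE, edgeR adjusted p = 6.7e-11), and 237 of the tested genes fell further. In the rescue it was 2.40-fold higher than in the knockout (1.26 ± 0.08, edgeR adjusted p = 1.9e-10), and against the empty vector the difference was -0.10 (95% confidence interval -0.26 to 0.06, edgeR adjusted p = 0.31). Its ligand Hgf had at most 3 counts in any library, too few to measure.

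Axl is a TAM family receptor whose ligand is Gas6. It measured 52.0, 48.9 and 51.1 CPM with the empty vector, 49.2, 45.3 and 41.3 CPM in the knockout and 49.9, 48.2 and 48.7 CPM in the rescue. All groups overlapped. The log2 fold change of -0.17 ± 0.07 between knockout and empty vector was called lower at an edgeR adjusted p of 0.044, but this edgeR call depended on the settings. It was lost with DESeq2 (adjusted p = 0.15), RLE scaling (adjusted p = 0.098), upper-quartile scaling (adjusted p = 0.057), a filter of 1 CPM in 3 libraries (adjusted p = 0.054) and a fit of only the 6 libraries (adjusted p = 0.068). In edgeR it was also lost without empty vector replicate 1 (adjusted p = 0.096), empty vector replicate 3 (adjusted p = 0.093), knockout replicate 2 (adjusted p = 0.079) or knockout replicate 3 (adjusted p = 0.24). In the authors' deposited table Axl has an adjusted p of 0.19 in that comparison. From knockout to rescue, Axl differed by 0.12 ± 0.07 (95% confidence interval -0.03 to 0.26, edgeR adjusted p = 0.16), and it passed with library totals alone (0.30, adjusted p = 0.00072) and without knockout replicate 1 (adjusted p = 0.043). The value between rescue and empty vector was -0.05 (95% confidence interval -0.19 to 0.09, edgeR adjusted p = 0.57).

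The ErbB receptors moved apart. Erbb2, which has no known ligand of its own and serves as the partner of the other ErbB receptors, measured 83.9, 70.4 and 70.7 CPM with the empty vector, 131, 133 and 115 CPM in the knockout and 73.0, 67.7 and 68.6 CPM in the rescue. The 3 knockout libraries lay above all others. Erbb2 was 1.68-fold higher in the knockout than with the empty vector (0.75 ± 0.07, edgeR adjusted p = 5.4e-08) and 1.81-fold lower in the rescue than in the knockout (-0.85 ± 0.08, edgeR adjusted p = 1.1e-08). Between rescue and empty vector the difference was -0.10 (95% confidence interval -0.26 to 0.06, edgeR adjusted p = 0.28), and without empty vector replicate 1, the highest of its group, it was 0.01. Mien1 overlaps Erbb2 by 9 bases on the other strand and had 2097 counts over the 9 libraries against 15546 for Erbb2.

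Erbb3, which binds neuregulins but has little kinase activity of its own and signals through Erbb2, measured 69.1, 68.3 and 69.3 CPM with the empty vector, 57.3, 53.6 and 48.6 CPM in the knockout and 58.2, 58.8 and 55.2 CPM in the rescue. The empty vector libraries lay above all 6 others, and the knockout and rescue libraries overlapped. Erbb3 was lower than with the empty vector in the knockout (-0.38 ± 0.07, edgeR adjusted p = 6.7e-05) and in the rescue (-0.26 ± 0.07, edgeR adjusted p = 0.0028). The rescue differed from the knockout by 0.11 (95% confidence interval -0.03 to 0.26, edgeR adjusted p = 0.15), and it passed with library totals alone (0.30, adjusted p = 0.00061) and without knockout replicate 1 (adjusted p = 0.046).

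Egfr, the receptor of the EGF family, measured 89.3, 84.3 and 84.2 CPM with the empty vector, 88.8, 76.2 and 74.9 CPM in the knockout and 69.6, 65.6 and 70.7 CPM in the rescue. The rescue libraries were the 3 lowest, and the empty vector and knockout libraries overlapped. Egfr was not called between knockout and empty vector (-0.10 ± 0.07, 95% confidence interval -0.25 to 0.04, edgeR adjusted p = 0.2) but was called lower with library totals alone (-0.26, adjusted p = 0.0018) and without knockout replicate 1 (-0.19, adjusted p = 0.023). It was lower in the rescue than in the knockout (-0.22 ± 0.07, edgeR adjusted p = 0.011), a call lost with library totals alone (-0.03, adjusted p = 0.68), without knockout replicate 1 (adjusted p = 0.11) and without rescue replicate 2 (adjusted p = 0.067). Against the empty vector the rescue was lower by -0.32 ± 0.07 on the log2 scale (edgeR adjusted p = 0.00066), a call kept in all 18 alternative settings.

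Ratios of FPKM values inside a library do not depend on its scaling. They were taken for 4 pairs chosen after the values were seen, and so are given without a test. Erbb3 over Erbb2 ran from 0.714 to 0.849 with the empty vector, 0.348 to 0.378 in the knockout and 0.690 to 0.751 in the rescue. Egfr over Erbb2 ran from 0.490 to 0.551, 0.263 to 0.311 and 0.438 to 0.474 in the same order. For both ratios the 3 knockout libraries lay below all 6 others. Met over Fgfr1 ran from 0.373 to 0.425, 0.133 to 0.136 and 0.462 to 0.557, and Met over Axl from 1.09 to 1.17, 0.482 to 0.506 and 1.04 to 1.22. The Met ratios were lowest in the knockout, and Met over Fgfr1 was highest in the rescue, where Fgfr1 was lowest.

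**Figure D3:**
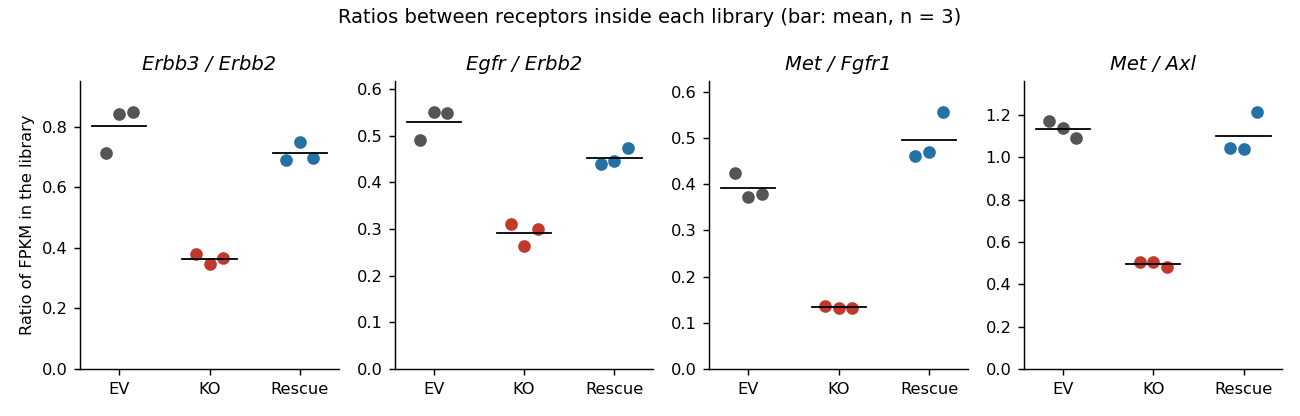
Ratio of deposited FPKM values inside each library for Erbb3 over Erbb2, Egfr over Erbb2, Met over Fgfr1 and Met over Axl, with 1 point per library and a bar at the mean of 3. The knockout points of Erbb3 over Erbb2 lie between 0.348 and 0.378, below the points of both other groups.

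Fgfr1 is a receptor of fibroblast growth factors. It measured 281, 294 and 289 CPM with the empty vector, 358, 337 and 294 CPM in the knockout and 221, 209 and 208 CPM in the rescue. The 3 rescue libraries lay below all others, and the knockout libraries were at or above the empty vector libraries, with the lowest of the former within 1 CPM of the highest of the latter. Fgfr1 was lower in the rescue than in the knockout (-0.63 ± 0.07, edgeR adjusted p = 2.7e-07) and than with the empty vector (-0.44 ± 0.07, edgeR adjusted p = 4.3e-05). Its rise from empty vector to knockout was 0.19 ± 0.07 (edgeR adjusted p = 0.021). That edgeR call was lost with library totals alone (0.04, adjusted p = 0.66), with all genes of at least 1 count (0.14, adjusted p = 0.11), and without empty vector replicate 3 (adjusted p = 0.06), knockout replicate 1 (adjusted p = 0.16) or knockout replicate 2 (adjusted p = 0.079).

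Igf1r, the receptor of insulin-like growth factors, measured 114, 127 and 116 CPM with the empty vector, 154, 138 and 123 CPM in the knockout and 86.4, 83.2 and 81.9 CPM in the rescue. Here too the 3 rescue libraries were the lowest of the 9, and the knockout overlapped the empty vector. Igf1r was lower in the rescue than in the knockout (-0.72 ± 0.07, edgeR adjusted p = 9.3e-08) and than with the empty vector (-0.50 ± 0.07, edgeR adjusted p = 1.5e-05). It was also called higher from empty vector to knockout (0.22 ± 0.07, edgeR adjusted p = 0.016), a call lost with library totals alone (0.06, adjusted p = 0.52), with all genes of at least 1 count (adjusted p = 0.057), and without empty vector replicate 3 (adjusted p = 0.068) or knockout replicate 1 (adjusted p = 0.15).

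Pdgfrb is known as a receptor of pericytes and fibroblasts. It measured 31.2, 27.2 and 24.9 CPM with the empty vector, 64.8, 59.0 and 53.9 CPM in the knockout and 25.6, 24.7 and 24.1 CPM in the rescue. The 3 knockout libraries lay above all others, and the other 2 groups overlapped. Pdgfrb was 2.13-fold higher in the knockout than with the empty vector (1.09 ± 0.09, edgeR adjusted p = 2.1e-09) and 2.38-fold lower in the rescue than in the knockout (-1.25 ± 0.09, edgeR adjusted p = 3.5e-10). The difference between rescue and empty vector was -0.16 (95% confidence interval -0.35 to 0.02, edgeR adjusted p = 0.14), and without empty vector replicate 3 it passed (-0.24, adjusted p = 0.049). The other 9 fibroblast and pericyte markers summed to 15.0 to 17.2 CPM with the empty vector, 41.7 to 45.4 CPM in the knockout and 21.4 to 24.2 CPM in the rescue, with 1 at 0 in all libraries (Lum). Most of that sum was Des, the muscle filament desmin, at 10.7, 35.5 and 16.6 CPM. The collagen gene Col1a1 averaged 1.80 CPM with the empty vector and 5.55 CPM in the knockout. Cspg4 went the other way, at 3.62 and 1.15 CPM in the same order. The fibroblast and pericyte markers Col3a1, Dcn and Rgs5 had at most 1 count in any library. The part of such cells in the Pdgfrb difference was not tested, and in bulk RNA a different share of cells and a different level per cell cannot be told apart.

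Pdgfra and Fgfr2 were not measured well. Pdgfra, the other PDGF receptor, had 0, 0 and 0 counts with the empty vector, 0, 1 and 0 in the knockout and 0, 0 and 3 in the rescue, and was too low to measure. A count of 0 over the empty vector group allows up to 3 counts, or 0.0476 CPM, for counting error only. Fgfr2, the FGF receptor best known from epithelia, had 5, 3 and 4 counts, then 5, 7 and 3, then 22, 23 and 18. The 3 rescue libraries held more than all others, at 1.06 ± 0.246 CPM (SD, n = 3) against 0.192 ± 0.0307 with the empty vector. Fgfr2 was called higher between rescue and knockout (1.77 ± 0.46, edgeR adjusted p = 0.0025) and between rescue and empty vector (2.40 ± 0.47, edgeR adjusted p = 0.00033), but not in the knockout against the empty vector (0.63 ± 0.61, edgeR adjusted p = 0.39). It had passed the filter only through the rescue, where it was high, so a difference was built into its being tested. The deposited Fgfr2 gene spans chr7:130162451-133123350, and 1 of its 27 transcripts in GENCODE M21 reaches that far end while the others stop by 130266263. The 2 exons beyond, of 314 bases together, overlap exons of Ctbp2, a transcriptional corepressor, at 42.4, 27.9 and 45.5 CPM in the 3 groups, so reads there cannot be told apart. Ctbp2 was not called in the rescue against the empty vector (0.11 ± 0.06, edgeR adjusted p = 0.18), though the rescue libraries all lay higher. It was called higher in the rescue than in the knockout (0.71 ± 0.07, edgeR adjusted p = 2.3e-08). The part of Ctbp2 reads in the Fgfr2 counts was not tested.

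**Figure D4:**
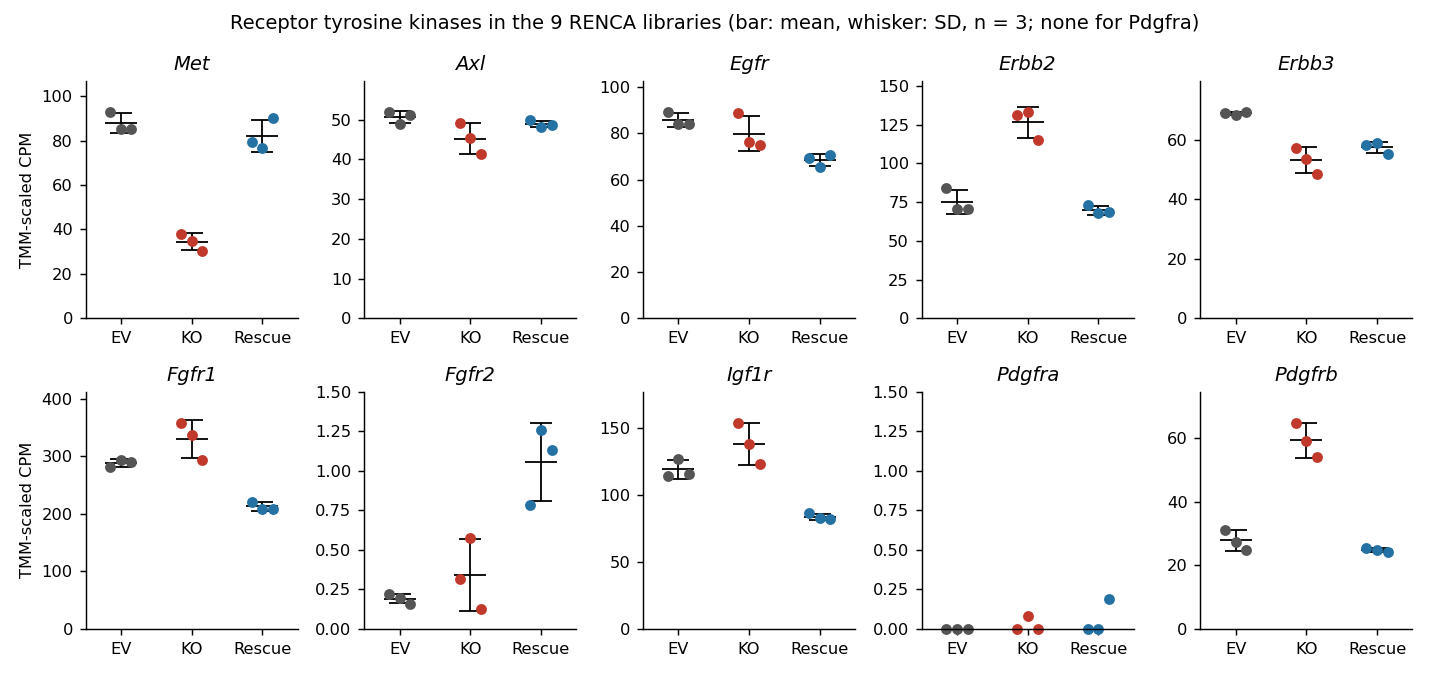
TMM-scaled CPM of the 10 receptors in each of the 9 libraries, 1 panel per gene and 1 point per library, with the mean and SD of 3 except for Pdgfra. Met drops to 30.3 to 38.0 CPM in the knockout, Erbb2 and Pdgfrb are highest there, and Fgfr1 and Igf1r are lowest in the rescue.

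The genes whose pattern over the 9 libraries lay closest to a receptor were named for the 3 receptors whose group means spanned at least 1 on the log2 scale. Closeness was the root-mean-square difference of centred log2 CPM. For Met these were Lhfp (0.081) and Rad51b (0.116), for Pdgfrb Pqlc2 (0.0616), and for Fgfr2 Cxcl5 (0.398) and Ndufa4l2 (0.446). Lhfp averaged 29.0, 10.7 and 27.8 CPM, and Pqlc2 12.2, 24.5 and 10.9 CPM, in empty vector, knockout and rescue. The Fgfr2 neighbours were distant and rested on few counts. Fgfr2 had enough counts only through the rescue, so neighbours high in the rescue were built in. Ndufa4l2 was re-expressed in that group by design, and its place here supports no link to Fgfr2.

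Of 37 genes listed as ligands of these receptors or of other members of their families, 13 were tested. Btc and Fgf2 had enough counts only through the empty vector libraries and are left out of the counts. Between knockout and empty vector 7 of the other 11 were called higher and 4 lower, beside 29.5% and 31.1% of all tested genes, with a median log2 fold change of 0.41. Nrg1, a neuregulin that binds Erbb3, averaged 236 ± 7.30 CPM with the empty vector, 67.7 ± 6.34 CPM in the knockout and 124 ± 14.6 CPM in the rescue (SD, n = 3 each). It fell between empty vector and knockout (-1.80 ± 0.08, edgeR adjusted p = 2.3e-12), was higher in the rescue than in the knockout (0.88 ± 0.08) and stayed lower in the rescue than with the empty vector (-0.93 ± 0.08). Hbegf, a membrane-anchored ligand of Egfr, averaged 66.0 ± 4.74, 27.9 ± 1.32 and 35.9 ± 3.35 CPM and was also lower in the knockout (-1.24 ± 0.08, edgeR adjusted p = 1.2e-10). Pdgfb, a ligand of both PDGF receptors, was lower by 0.46 and Egf, which was under 4 CPM in each group, by 0.99 on the log2 scale.

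Among the ligands called higher in the knockout, Gas6 and Pros1, the ligands of the TAM receptors, rose by 0.52 ± 0.08 and 0.67 ± 0.12 on the log2 scale. Fgf21, a hormone of the FGF family, rose by 0.69 ± 0.08, from 253 ± 37.5 to 410 ± 13.9 CPM, and Pdgfc and Pdgfa, other PDGF ligands, by 0.38 ± 0.07 and 0.41 ± 0.09. Igf1 (0.73 ± 0.25, edgeR adjusted p = 0.044) and Nrg4 (0.56 ± 0.23, edgeR adjusted p = 0.041) passed narrowly and lost their calls in 11 and 12 of the 18 alternative settings. Btc (-0.95 ± 0.42, edgeR adjusted p = 0.056) and Fgf2 (-0.44 ± 0.39, edgeR adjusted p = 0.35) were not called. In edgeR Btc was called lower with library totals alone (-1.11, adjusted p = 0.027) and without empty vector replicate 1 (-1.23, adjusted p = 0.013). Both genes had enough counts only through the empty vector libraries, so a fall was built into their being tested. The other 24 ligands were too low to test, and Tgfa, Ereg and Igf2 had 0 counts in all libraries. In the rescue 3 of the 11 ligands were higher than in the knockout and 6 lower, beside 29.5% and 27.3% of all tested genes, with a median of -0.37, and Nrg1 (0.88 ± 0.08), Pdgfb (0.54 ± 0.06), Fgf21 (-0.66 ± 0.08) and Pdgfc (-0.37 ± 0.07) had the smallest adjusted p in each direction.

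Of 29 related receptors 12 were tested, and Ephb2, which had enough counts only through the knockout libraries, is left out of the counts. Of the other 11, 6 were called higher and 3 lower in the knockout, beside 29.5% and 31.1% of all tested genes, with a median log2 fold change of 0.42. With library totals alone 5 were lower. Igf2r, the mannose 6-phosphate receptor that clears IGF2 and has no kinase, rose by 1.10 ± 0.08 and the collagen receptor Ddr1 by 0.70 ± 0.07. Ephb4, an ephrin receptor, rose by 0.71 ± 0.08. Csf1r, a receptor of macrophages, rose by 1.83 ± 0.25 from 1.08 to 3.87 CPM, and was at 1.38 CPM in the rescue. The leukocyte list of 14 genes includes Csf1r, and 5 of the 14 were at 0 in all libraries. It summed to 90.9 to 95.4 CPM with the empty vector, 279 to 301 CPM in the knockout and 53.4 to 57.1 CPM in the rescue. Cd68 and Cd14 made up most of that sum. Lyz2 averaged 0.948, 7.48 and 1.15 CPM in the 3 groups. Ptprc and Tyrobp had at most 2 and 1 counts in any library, and Adgre1 and Itgam had 0. The part of such cells in the Csf1r difference was not tested. The ephrin receptor Epha2 (-0.60 ± 0.08), the collagen receptor Ddr2 (-0.47 ± 0.07) and the decoy receptor Fgfrl1 (-0.35 ± 0.10) fell. Ephb2 had 0 counts with the empty vector and 9 to 18 in the knockout, at least 16.7-fold higher against the floor of 3 counts over the group, a difference built into its being tested. Against the knockout, 9 of the 11 were lower in the rescue and 2 higher, beside 27.3% and 29.5% of all tested genes, with a median of -0.66: Igf2r (-1.08 ± 0.08) and Ddr1 (-0.93 ± 0.07) fell most clearly, while Fgfrl1 (0.31 ± 0.10) and Ryk (0.16 ± 0.06) were higher, calls that leaving out single libraries ended (without knockout replicate 3 the adjusted p was 0.077 and 0.12). Erbb4, Fgfr4, Kit and Kdr had 0 counts in all libraries.

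The adaptors and enzymes next to the receptors were mixed. Of 24 tested, Shc2 had enough counts only through the knockout libraries and is left out of the counts. Of the other 23, 6 rose and 9 fell in the knockout, beside 29.5% and 31.1% of all tested genes, with a median of -0.07. Pik3r2, a regulatory subunit of PI3 kinase, rose by 0.94 ± 0.06, Grb7, an adaptor beside Erbb2 in the genome, by 0.58 ± 0.07, the exchange factor Vav2 by 0.54 ± 0.06 and the phospholipase Plcg2 by 0.47 ± 0.06. Sos1 and Sos2, the exchange factors of RAS, fell by 0.56 and 0.38, Pik3cb, a catalytic subunit of PI3 kinase, by 0.48 and Plcg1 by 0.32, all on the log2 scale. In the rescue 10 were higher than in the knockout, Sos1 (0.56 ± 0.07) and Nck1 (0.53 ± 0.08) among them, and 6 lower, including Vav2 (-0.69 ± 0.06) and Crkl (-0.48 ± 0.06), beside 29.5% and 27.3% of all tested genes, with a median of 0.08. Irs1 and Irs2, the docking proteins of Igf1r, had at most 1 and 7 counts in any library.

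Of 22 tested genes that restrain receptor signalling, 11 fell and 2 rose in the knockout, beside 31.1% and 29.5% of all tested genes, with a median of -0.34. Spry1, a feedback inhibitor of the RAS pathway, fell by 1.71, from 34.2 ± 3.00 to 10.4 ± 0.790 CPM, and Socs2, a cytokine signalling suppressor, by 1.16, from 62.3 ± 4.68 to 27.8 ± 2.19 CPM. Errfi1, an inhibitor of Egfr and Erbb2 kinases, fell by 0.61 and Cd2ap, an adaptor of receptor endocytosis, by 0.55 on the log2 scale. Lrig2 (0.56 ± 0.07) and the ubiquitin ligase Cblb (0.55 ± 0.12) rose. Between rescue and knockout 8 were higher and 4 lower, beside 29.5% and 27.3% of all tested genes, with a median of 0.14: Spry1 (1.30 ± 0.10) and Socs2 (0.97 ± 0.08) were higher, and Lrig2 (-1.34 ± 0.08) and the phosphatase Ptprj (-0.63 ± 0.08) lower. With library totals alone 14 of the 22 were called higher in that comparison.

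Of 21 tested proteases and binding proteins that act on the ligands, 17 rose and 3 fell in the knockout, beside 29.5% and 31.1% of all tested genes, with a median of 0.54. Plat, tissue plasminogen activator, rose by 2.23 ± 0.08, from 64.4 ± 6.20 to 303 ± 21.7 CPM, and Igfbp5, an IGF binding protein, by 3.90 ± 0.19, from 1.15 to 17.1 CPM. The co-receptor Nrp1 rose by 2.13 ± 0.10 and Igfbp7 by 1.02 ± 0.06, and Igfbp4 fell by 0.76. Nrp1 and Plat are also expressed by endothelial cells, and the 8 listed endothelial markers summed to 163 to 176 CPM with the empty vector, 274 to 301 CPM in the knockout and 118 to 134 CPM in the rescue. Nearly all of that sum was Eng, at 166, 288 and 125 CPM, and 3 of the 8 (Kdr, Emcn and Cldn5) had 0 counts in all libraries. Pecam1 averaged 0.497, 0.663 and 0.224 CPM and Plvap 1.45, 1.73 and 0.444 CPM in the 3 groups. Cdh5 and Tek had at most 1 and 4 counts in any library. The part of such cells in the Nrp1 and Plat differences was not tested. Plau (-0.18 ± 0.07, edgeR adjusted p = 0.029) and Sdc4 (-0.22 ± 0.08, edgeR adjusted p = 0.032) were called lower narrowly, and both lost the call with DESeq2 and without empty vector replicate 1 (adjusted p = 0.19 and 0.13) or knockout replicates 2 (0.066 and 0.091) or 3 (0.078 and 0.15). In the rescue 19 of the 21 were lower than in the knockout, beside 27.3% lower and 29.5% higher over all tested genes. The median was -0.82, with Plat (-2.44 ± 0.08) and Igfbp7 (-1.38 ± 0.06) leading. None was higher by edgeR, by DESeq2 or at an unadjusted p under 0.05, but 1 was called higher in edgeR with library totals alone. These knockout and rescue values rest on the same 3 knockout libraries.

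**Figure D5:**
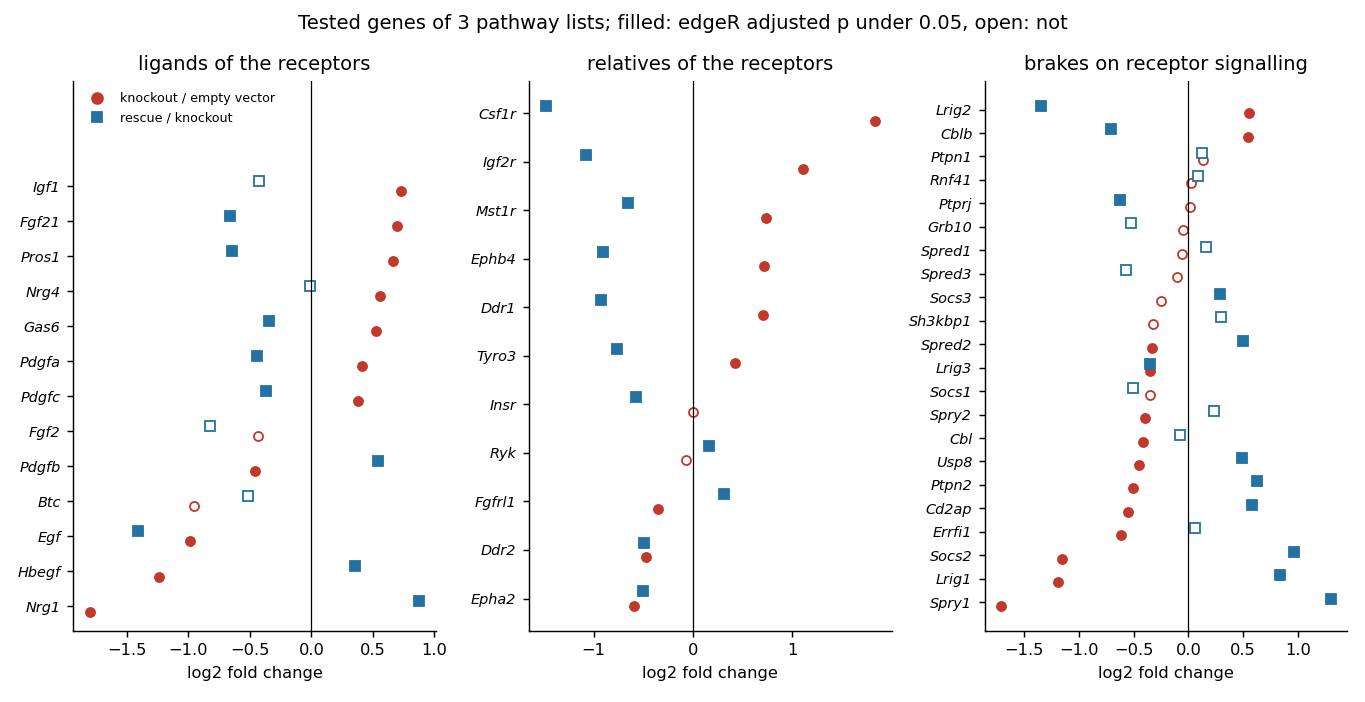
log2 fold change of the tested ligands, related receptors (Ephb2, with 0 counts in the empty vector libraries, is not drawn) and brakes, as red circles for knockout over empty vector and blue squares for rescue over knockout, filled where the edgeR adjusted p was under 0.05. Nrg1 and Spry1 lie farthest left among the red circles of the first and the last list.

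Between rescue and empty vector 22.4% of all tested genes were called higher and 25.1% lower, with a median log2 fold change of -0.02. Beside these, 1 of 11 ligands was called higher and 3 lower (median 0.02), and of 11 related receptors none was higher and 5 were lower (-0.19). Over the 12 tested related receptors, 1 was higher at an unadjusted p under 0.05 in edgeR and 0 by DESeq2. Of 23 adaptors 5 were higher and 3 lower (-0.01), of 22 brakes 1 higher and 9 lower (-0.18), and of 21 proteases and binding proteins 5 higher and 10 lower (-0.21). When a setting was changed or a library left out, over all tested genes of each list, the number of ligands called higher ran from 0 to 3, of adaptors called lower from 1 to 4, of brakes called higher from 1 to 4, and of proteases and binding proteins called higher from 2 to 5 and lower from 6 to 10. The lowest counts for the last came without empty vector replicate 3 and without rescue replicate 2, and the highest for ligands and brakes without empty vector replicate 1. Hbegf was lower in the rescue by 0.89 ± 0.08. Some genes named above for the knockout differed from the empty vector in the rescue too, and 3 of them, picked after their values were seen, are given here. Errfi1 averaged 75.3 ± 1.30 CPM in the rescue, 72.3 ± 0.784 CPM in the knockout and 111 ± 5.58 CPM with the empty vector, and was lower in the rescue than with the empty vector (-0.56 ± 0.06, edgeR adjusted p = 3.2e-07). Grb7, at 58.8 ± 2.48 CPM in the rescue against 38.6 ± 2.71 CPM with the empty vector, was higher (0.61 ± 0.07, edgeR adjusted p = 8.8e-07). Pik3r2, at 123 ± 3.78 CPM against 72.7 ± 6.14 CPM, was higher as well (0.76 ± 0.06, edgeR adjusted p = 2.1e-08).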

How the data were processed

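Gene counts were deposited by the authors as whole numbers per gene and library, per the file headers and the values, with FPKM values and gene lengths beside them. The authors' deposited log2 fold changes and p-values, per the file headers, were used for 1 comparison with Axl, whose method no source used here states. Per the submitters' processing notes the tools were CASAVA, HISAT2, HISAT and TopHat2 with build mm10, without roles. For the read counter and strand, no setting was given in the sources used here. The labels' protocols describe directional and non-directional preparation of poly(A) RNA. The series text mentions fewer knockout libraries than the 3 in the labels and the table, and all 3 were used. Genomic DNA is the molecule in the labels.

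The counts of all 9 libraries were fitted together with edgeR 4.0.16 in R 4.3.3 (filterByExpr with a minimum count of 10, TMM scaling, robust quasi-likelihood F-test, 1 mean per group). P-values were adjusted by Benjamini-Hochberg over the 13326 tested genes, and an adjusted p under 0.05 was called. The fit was tested on simulated counts. No replicate pair agreed within sampling noise (over genes, chi-square divided by its degrees of freedom was 3.64 to 20.3). FPKM values were compared as deposited and not tested. Pathway genes were named by smallest adjusted p, up to 4 per direction in knockout against empty vector and up to 2 in rescue against knockout, with all measured ligands. The receptors and all gene lists were chosen with earlier results of these data known. Alternatives were DESeq2 1.42.0, other scalings and filters, a fit of the compared groups alone, a replicate block and leaving out each library. Depth limits precision for counts near 0, and floors cover counting error only. For each receptor whose group means spanned at least 1 on the log2 scale, the genes closest in pattern were named, and 1 such gene is not reported here.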

Additional observations from a re-analysis of the deposited data

How the results depend on the processing

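The calls of Met, Erbb2, Erbb3 and Pdgfrb between knockout and empty vector, of Met, Erbb2, Fgfr1, Igf1r and Pdgfrb between rescue and knockout, and of Egfr, Erbb3, Fgfr1 and Igf1r between rescue and empty vector were kept in all 18 alternatives. Between knockout and empty vector, the receptors called higher went from 4 to 2 with library totals alone and to 2 with all genes of at least 1 count, and ranged from 2 to 4 when single libraries were left out. Between rescue and knockout they went from 2 to 4 with library totals alone and to 1 with a filter of 1 CPM in 3 libraries, which drops Fgfr2, and ranged from 2 to 4 when single libraries were left out. Between rescue and empty vector they went from 1 to 0 with that filter, for the same reason. Erbb2 between rescue and empty vector ranged from -0.15 to 0.011 on the log2 scale when single libraries were left out, changing sign without empty vector replicate 1.

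Library totals alone moved the median log2 fold change of all genes to -0.17 for the knockout over the empty vector, 0.22 for the rescue over the knockout and 0.01 for the rescue over the empty vector. Higher calls made up 34.4%, 69.6% and 52.4% of all calls then, in place of 48.7%, 51.9% and 47.2%. Same-numbered libraries did not deviate together (correlations from -0.15 to 0.05). With 3 libraries per group this cannot settle whether the numbers pair them. With the replicate block, 7890, 7367 and 6091 genes were called, against 8078, 7567 and 6330 without it, and no receptor's call changed. Of the named pathway genes, 36 of 41 values for the knockout over the empty vector, 16 of 18 for the rescue over the knockout and 5 of 5 for the rescue over the empty vector kept their call and direction in all 18 alternatives, which were run on these genes after the data had been seen. Levels per length did not move beyond 1 SD with TMM-scaled counts per kilobase in place of FPKM. Pdgfra and Fgfr2 are limited by depth, and the causes of the changes above were not tested.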
